A study of Mus musculus with 6 samples.

Results

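The adipocytes of the mouse tibial periosteum, the fibrous and vascular sheet on the outer surface of bone, were represented by 50 nuclei among 8073 that passed a filter on genes detected and on mitochondrial and ribosomal transcripts. They were chosen by marker transcripts counted as UMIs (unique molecular identifiers, 1 per captured RNA molecule). A nucleus was kept when Plin1, Adipoq, Cidec, Acvr1c, Lipe and Pparg together gave at least 3 UMIs from at least 2 of these genes, with at least 1 UMI from Plin1, Adipoq, Cidec or Acvr1c. It also had to hold no UMI of Ptprc (leukocytes) or Pecam1 (endothelium) and under 1% of its UMIs from Ttn, Neb, Ckm and Acta1 (myofibres). The values of these 12 genes are therefore a property of the selection and are given below as a description.

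Single-nucleus RNA sequencing was performed on 6 libraries from C57BL6 mice, for which the labels give no transgene or treatment. The 2 uninjured libraries came from periosteum scraped off the cortex of marrow-flushed tibias pooled from 4 mice each. The 2 libraries of day 3 and the single libraries of day 5 and day 7 came from tibias with an open, non-stabilized fracture, pooled from 4 to 9 mice, in which the activated periosteum was collected together with the hematoma. Nuclei were released mechanically, stained with Sytox AADvanced and sorted on that stain, so no marker of cell identity was used in the sort. Mice were 12 weeks old, males and females were mixed, and each library is a pool of animals. Periosteum and hematoma differ in the cells they hold, so a lower number of adipocytes and a higher number of other cells in a fractured library cannot be told apart.

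Adipocytes store fatty acids as triglyceride inside a lipid droplet and release them by lipolysis when energy is needed. Insulin drives fatty acid uptake and synthesis and holds lipolysis back, while catecholamines and natriuretic peptides raise it through cyclic nucleotides. Adipocytes also secrete proteins such as adiponectin, adipsin and leptin. White fat cells carry 1 large droplet, and brown or beige fat cells are recognised by the uncoupling protein Ucp1.

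The libraries held 655 to 4712 barcodes and between 1499281 and 29796296 UMIs, and 644 to 2423 nuclei per library passed the filter with medians of 1283 to 4241 UMIs. Counts were made with Cell Ranger 6.0.0 for uninjured replicate 1, day 5 and day 7 and with 7.1.0 for the other libraries. The uninjured libraries were thus split between the versions, while both day 3 libraries shared 1 version and days 5 and 7 the other. The part of software version in differences between libraries was not tested. A total of 18 barcodes occurred in more than 1 library, and 0 of them belonged to an adipocyte nucleus. Scrublet marked 48 of the 8073 nuclei as doublets, and 0 of the 50 adipocyte nuclei were among them. With so few nuclei marked in all, a count of 0 among 50 does not show that the adipocyte nuclei were free of doublets.

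Adipocyte nuclei were found mainly in uninjured periosteum. Uninjured replicate 1 held 14 of 644 nuclei, 2.17% (exact 95% binomial interval 1.19 to 3.62%), and uninjured replicate 2 held 27 of 1182, 2.28% (1.51 to 3.31%). At day 3, replicate 1 held 2 of 753, 0.266% (0.0322 to 0.956%), and replicate 2 held 1 of 1720, 0.0581% (0.00147 to 0.324%). Day 5 held 6 of 2423, 0.248% (0.0909 to 0.538%), and day 7 held 0 of 1351 (0 to 0.273%), where 3 nuclei would be 0.222%. The uninjured and day 3 libraries did not overlap, and the means differed by -2.07 percentage points (exact two-sided permutation test over libraries, p = 0.333, the smallest that 2 libraries against 2 can give). Days 5 and 7 had 1 library each and were not tested. The intervals cover counting error only, and the p-value measures the spread between these libraries, since no source ties them to separate experiments.

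**Figure D1:**
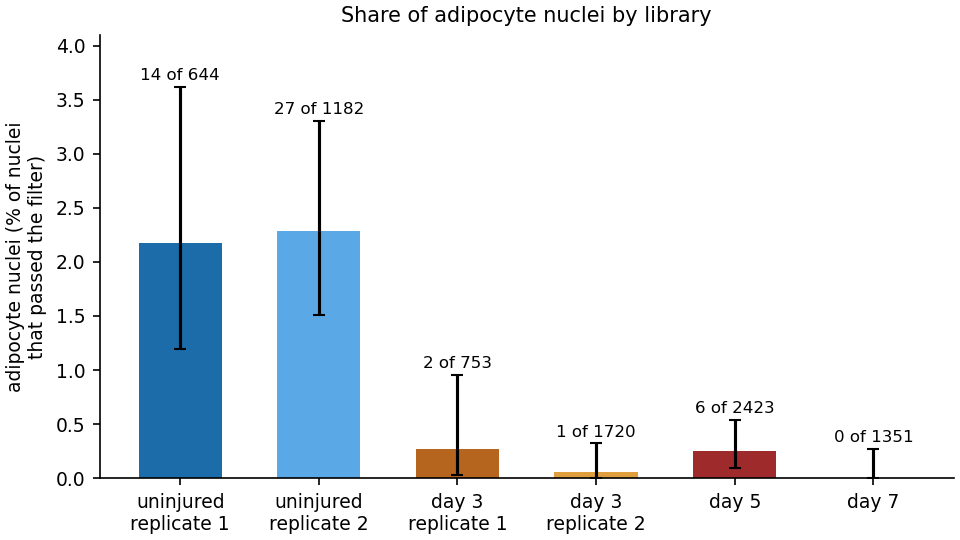
Bars show adipocyte nuclei as a percentage of the nuclei that passed the filter in each of the 6 libraries, with exact 95% binomial intervals as error bars and the counts printed above. The uninjured libraries stand at 2.17% and 2.28% and the 4 fractured libraries between 0 and 0.266%.

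The uninjured libraries stayed above the fractured ones when the share was taken among nuclei free of Ptprc, Pecam1 and myofibre transcripts. The uninjured libraries then held 4.98% and 4.55%, those of day 3 held 0.775% and 0.267%, day 5 held 0.415% and day 7 held 0%, a difference of -4.25 percentage points between day 3 and uninjured. Thinning every nucleus to 1000 UMIs before the selection, which left out shallower nuclei and gave all others the same depth, gave a difference of -2.15 percentage points. Before any exclusion, 90 barcodes of the 6 libraries met the marker condition, and 0 of these came from day 7. Of the 90, 22 lay outside the filter, 14 were removed for Ptprc or Pecam1 (6 with Ptprc and 11 with Pecam1) and 5 for myofibre transcripts, a nucleus being removed for either reason or both. The losses were uneven over libraries. Day 3 replicate 2 had 13 of the 90, with 8 outside the filter, 4 removed for Ptprc or Pecam1 and 1 kept. Uninjured replicates 1 and 2 kept 14 of 17 and 27 of 49, day 3 replicate 1 kept 2 of 3 and day 5 kept 6 of 8. The share of day 3 replicate 2 therefore depends on these exclusions. A group of 11 barcodes outside the filter otherwise met every condition, and 10 of them belonged to uninjured replicate 2.

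The label rests on genes that the selection itself read, so their detection is given as a description and is no independent check. Of the 5 genes that define it, Plin1 coats the lipid droplet, Cidec (also Fsp27) fuses droplets into a large one, Lipe is hormone-sensitive lipase, Adipoq encodes adiponectin and Acvr1c is the activin receptor ALK7. At least 3 of the 5 were detected in 41 of the 50 nuclei and all 5 in 25, while 6 nuclei held 2 of them and 3 nuclei held 1. Lipe was detected in 44 nuclei, Cidec in 43, Acvr1c in 41, Plin1 in 36 and Adipoq in 31, and Pparg, the master transcription factor of fat cells, in 46. The median nucleus held 16 UMIs of the 6 selecting genes and the highest 310. The threshold cut through a thin region, with 1 nucleus at 3 UMIs and 4 nuclei at 4 just inside it, and 6 nuclei at 2 UMIs and 32 at 1 UMI just outside.

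Plin1 and Cidec were rare in endothelial-like nuclei, while Lipe and Pparg were not. All gates left out the adipocyte nuclei, so these rates follow in part from the selection and are a description. All gates also left out nuclei with 1% or more of their UMIs from Ttn, Neb, Ckm and Acta1. Among nuclei gated as endothelial-like (at least 3 UMIs from at least 2 of Pecam1, Cdh5, Flt1 and Ptprb, and no Ptprc), Plin1 was found in 0% of nuclei of uninjured replicate 1 and 1.26% of replicate 2, against 71.4% and 74.1% of the adipocyte nuclei. Cidec was found in 0.625% and 1.67% of endothelial-gated nuclei and in 100% and 92.6% of adipocyte nuclei. Among nuclei gated as fibroblast-like (gate given below) it was found in 0% and 2.41%. Median depth was 1543.5 and 3725 UMIs in the endothelial-gated nuclei and 1330.5 and 6541 UMIs in the adipocyte nuclei. With every nucleus thinned to 500 UMIs, Cidec was detected in 57.1% and 33.3% of adipocyte nuclei and in 0.625% and 0% of endothelial-gated nuclei. Lipe had UMIs in 13.8% and 16.7% of endothelial-gated nuclei without thinning. Pparg had UMIs in 10.6% and 27.2% of endothelial-gated and 21.4% and 40.6% of pericyte-gated nuclei (at least 3 UMIs from at least 2 of Rgs5, Notch3, Abcc9 and Myh11, without Ptprc or Pecam1), against 78.6% and 100% of adipocyte nuclei. At 500 UMIs, Pparg was found in 7.14% and 12.5% of pericyte-gated nuclei (median depth 2873 and 4764 UMIs before thinning) and in 35.7% and 74.1% of adipocyte nuclei.

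A set of 78 genes of fat cell functions that the selection did not read gave a second view of each nucleus. In the uninjured libraries these genes held a median of 3.58% and 3.64% of the UMIs of an adipocyte nucleus, against 0.578% and 0.495% of those of another nucleus of the same library. The medians of the adipocyte nuclei were 1.87% and 3.18% on day 3 and 1.87% on day 5, against 0.370%, 0.404% and 0.460% in other nuclei. The 99th percentile of the other nuclei lay between 1.21% and 2.44%, and 45 of the 50 adipocyte nuclei exceeded that of their own library, 38 of 41 uninjured and 7 of 9 fractured. Nuclei chosen for fat cell markers had to be rich in related genes, so the difference is a description of the selected nuclei.

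**Figure D2:**
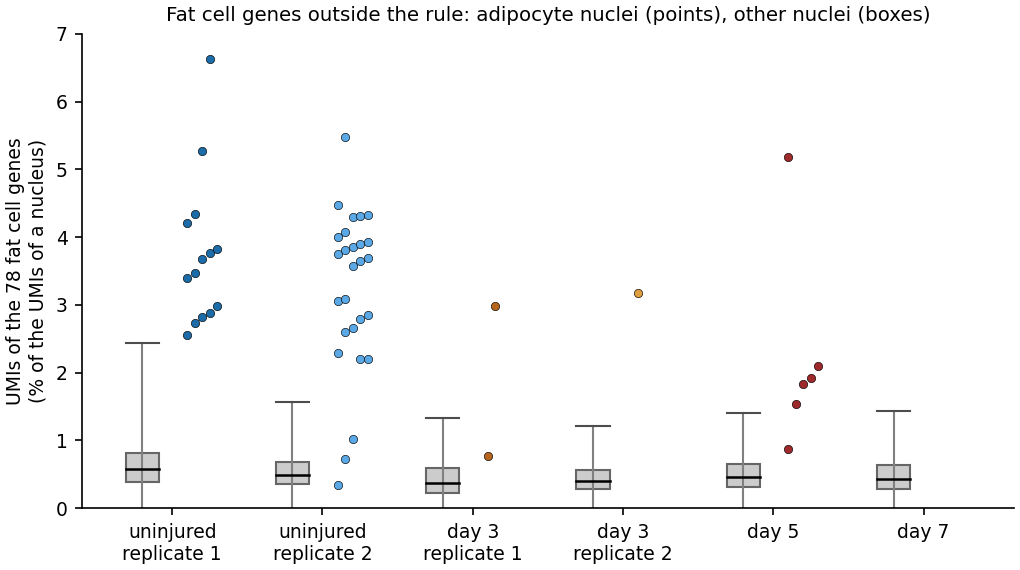
Each point is an adipocyte nucleus, and the grey boxes give the other nuclei of the same library (line at the median, box from the 25th to the 75th percentile, whiskers at the 1st and 99th). The vertical axis is the percentage of a nucleus's UMIs in 78 fat cell genes outside the selection, and 45 of 50 points lie above the 99th percentile.

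The 5 nuclei at or below that percentile were 3 of uninjured replicate 2, 1 of day 3 replicate 1 and 1 of day 5. The deepest of the uninjured 3 had 10799 UMIs, of which 5 were Acvr1c, 1 was Pparg and 30 came from the 8 fibroblast markers listed for comparison, and its 78 genes made 0.343% of UMIs. Another held 10 marker UMIs and 36 UMIs of fibroblast markers, with 0.722% in the 78 genes. The day 5 nucleus held 3 UMIs of Lipe, 1 of Acvr1c and 41 of fibroblast markers. The nucleus of day 3 held 28 marker UMIs and 211 UMIs of Ghr, with 0.764% in the 78 genes. The counts below were also made without these 5 nuclei.

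Levels are given in CPM (a gene's share of the UMIs summed over the adipocyte nuclei of a library, times 1000000), which do not correct for gene length and are compared only for the same gene. Adipocyte nuclei gave 31480 UMIs in uninjured replicate 1 and 238983 in replicate 2, so 3 UMIs, the smallest number read as a level, equal 95.3 and 12.6 CPM. A gene was counted as higher when its CPM, after adding 5, was at least 2-fold above that of the other nuclei in both uninjured libraries, among genes that averaged at least 50 CPM over both kinds of nuclei. Of 3988 such genes, 417 were higher, 10.5%, and 582 were lower, 14.6%. Of the 78 fat cell genes outside the selection, 51 reached 50 CPM, and 38 of these were higher and 1 was lower. The median log2 fold of the 51 was 2.82 in replicate 1 and 2.87 in replicate 2, against -0.02 and -0.01 over all 3988 genes.

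Genes of fatty acid uptake and handling stood well above the other nuclei. Of 13 genes, 8 reached 50 CPM and 7 were higher. Acsl1, which activates fatty acids with coenzyme A, was at 3113 CPM in replicate 1 and 1598 in replicate 2, against 158 and 114 CPM in other nuclei. Slc27a1, a fatty acid transport protein, was at 2097 and 1100 CPM against 103 and 51.9. Fabp4, the fatty acid binding protein of fat cells and capillaries, was at 1906 and 1276 CPM against 189 and 131 in all other nuclei and 510 and 466 in endothelial-gated nuclei. Lpl, the lipase that frees fatty acids from circulating lipoproteins, was at 604 and 795 CPM against 141 and 80.3. Pck1, whose enzyme supplies glycerol for triglyceride in fat cells, was at 921 and 686 CPM against 6.86 and 3.62.

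Synthesis of fatty acid and triglyceride was the next group, with 13 of 16 genes at 50 CPM or more and 8 higher. Acaca, the acetyl-CoA carboxylase that commits carbon to fatty acid synthesis, was at 2097 and 1385 CPM against 137 and 150. Scd1, the desaturase that makes oleate, was at 2065 and 979 CPM against 30.2 and 35.0. Dgat2, which completes the triglyceride molecule, was at 349 and 301 CPM against 8.24 and 9.82. Acacb, the carboxylase that restrains fatty acid oxidation, was at 1080 and 410 CPM against 223 and 150. Each of these genes was above the other nuclei in both libraries.

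All 8 of the lipolysis genes that reached 50 CPM, of 12, were higher. Pde3b, the phosphodiesterase through which insulin lowers cyclic AMP, was at 2478 and 2657 CPM against 47.4 and 63.9. Prkar2b, the regulatory subunit of protein kinase A that predominates in fat, was at 1112 and 1816 CPM against 7.55 and 15.3. Mgll, the monoglyceride lipase of the last step, was at 762 and 427 CPM against 133 and 125. Pnpla2, the triglyceride lipase of the first step, was at 191 and 276 CPM, and the adrenergic receptor Adrb3 was at 191 and 105 CPM with 6 and 25 UMIs, while Adrb1 gave 0 UMIs in both libraries.

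Secreted factors were also higher, in 8 of the 8 genes of 14 that reached 50 CPM. Ccdc80, a secreted matrix protein, was at 1874 and 1824 CPM against 50.8 and 114. Nnat, a small membrane proteolipid listed with this group, was at 1080 and 1632 CPM against 15.8 and 11.7, and its UMIs came from 19 of the 41 nuclei, 36.3% of them from 1 nucleus. Igf1 was at 413 and 1201 CPM against 21.3 and 160, and Cfd, which encodes adipsin, at 318 and 1063 CPM against 4.81 and 21.5. Leptin (Lep) gave 3 and 23 UMIs, 95.3 and 96.2 CPM, and resistin (Retn) 4 and 56 UMIs, 127 and 234 CPM.

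The insulin response and the lipid droplet coat were less uniform. Of 12 insulin response genes, 11 reached 50 CPM, 5 were higher and 1 was lower, beside 10.5% and 14.6% of all genes. Pik3r1, the regulatory subunit of phosphoinositide 3-kinase, was at 1811 and 2410 CPM against 424 and 346. Igf1r was the lower gene, at 63.5 and 167 CPM against 588 and 588. Slc2a4, the insulin-regulated glucose transporter, was at 63.5 and 33.5 CPM with 2 and 8 UMIs, against 58.3 and 44.3 in other nuclei. Of 12 droplet genes, 4 reached 50 CPM and 3 were higher, among them Plin4, a droplet coat protein, at 826 and 1113 CPM against 143 and 51.5 and Cav1, the scaffold of caveolae, at 349 and 820 CPM against 171 and 233.

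Transcription factors did not separate the adipocytes as clearly, with 4 of 10 genes higher of 14 listed, beside 10.5% of all genes. Ebf1 was at 2255 and 4318 CPM against 2241 and 3342 in other nuclei, and Zbtb16 at 4797 and 1439 against 3112 and 1154, less than 2-fold apart in each library. Mlxipl, which encodes the glucose-responsive factor ChREBP, was at 985 and 385 CPM against 126 and 100. Cebpa gave 0 and 22 UMIs.

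Of 14 hormone and growth factor receptor genes, 11 reached 50 CPM, 3 were higher and 2 lower, beside 10.5% and 14.6% of all genes. Ghr, the growth hormone receptor, lies on chromosome 15 at 3317760 to 3583492 in GRCm38 and was detected in all 50 adipocyte nuclei. Its level was 15629 CPM in uninjured replicate 1, 17964 in replicate 2, 18940 and 19756 at day 3 and 26932 at day 5, against 494 to 1281 CPM in the other nuclei of the 6 libraries. Over single nuclei it ranged from 463 to 32955 CPM in the uninjured and from 1246 to 53062 CPM in the fractured libraries, and 34 of the 50 nuclei exceeded the 99th percentile of the other nuclei of their library. With nuclei thinned to 500 UMIs, Ghr was found in 100% and 92.6% of uninjured adipocyte nuclei and in 23.8% and 31.3% of other nuclei. At this depth, Ghr was found in 24.1% and 33.7% of fibroblast-gated nuclei and in 7.14% and 7.81% of pericyte-gated nuclei. Endothelial-gated nuclei lay between these gates in each uninjured library. Lepr, the leptin receptor, gave 0 UMIs in all 50 nuclei.

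Several genes of brown fat were not detected. Ucp1, Cidea, Dio2, Elovl3 and Cox7a1 gave 0 UMIs in all 50 adipocyte nuclei, and the 3 UMIs of the reading limit correspond to 95.3 and 12.6 CPM in the uninjured libraries. Of 12 thermogenic genes, 4 reached 50 CPM, 0 were higher and 1 was lower, beside the 10.5% and 14.6% of all genes. Prdm16, a regulator of the brown fat programme, was at 254 and 105 CPM, with 8 and 25 UMIs, against 184 and 115 CPM in other nuclei, less than 2-fold apart in each library. Of 10 genes of adipocyte progenitors, 5 reached 50 CPM, 0 were higher and 2 were lower, with Pdgfra at 0 and 33.5 CPM and Cd34 at 1 and 3 UMIs. Of 10 genes listed for the adipo-lineage of bone marrow, where Lepr and Cxcl12 mark the stroma, 4 reached 50 CPM, with median log2 folds of 0.30 and -0.69. Of these 4, 1 was lower and 1, Hp, was higher, at 127 and 331 CPM against 4.12 and 8.44.

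Endothelial, immune, pericyte, fibroblast and myofibre markers summed lower than in other nuclei, and the selection had removed nuclei with Ptprc or Pecam1 UMIs or with 1% or more of myofibre UMIs. The 8 endothelial markers summed to 95.3 and 33.5 CPM, against 2169 and 1688 CPM in other nuclei, with Cyyr1, Kdr and Tek at 0. The 8 immune markers summed to 0 and 29.3 CPM against 44.6 and 344. The 8 pericyte markers summed to 31.8 and 146 CPM against 1308 and 846, and the 8 fibroblast markers to 413 and 837 CPM against 1310 and 3222. Myofibre markers summed to 1048 and 887 CPM against 24030 and 26096 in other nuclei. All 9 myofibre markers had UMIs in both libraries, although the selection capped 4 of them, and their part in the levels of other genes was not tested. Of 8 Schwann cell markers, 4 reached 50 CPM, 2 were lower and 1, the sodium channel gene Scn7a, was higher, at 191 and 372 CPM against 29.5 and 72.3. Of 8 osteoblast and chondrocyte markers, 1 reached 50 CPM and was lower. Of 8 osteoclast markers, 1 reached 50 CPM and was higher. This was Acp5, tartrate-resistant acid phosphatase, at 95.3 and 100.4 CPM with 3 and 24 UMIs, against 2.06 and 2.41 CPM in other nuclei.

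The genes farthest above the other nuclei were then named by fold, taking the smaller of both uninjured libraries among genes outside the selection with at least 20 UMIs in all and 3 in each library. The leading gene was Cyp2e1, a cytochrome P450 of ethanol and lipid oxidation, on chromosome 7 at 140763739 to 140774987 in GRCm38. It was at 1175 CPM in replicate 1 and 1582 in replicate 2, against 2.06 and 6.72 CPM in other nuclei, with log2 folds of 7.39 and 7.08. Cyp2e1 UMIs occurred in 28 of the 41 uninjured adipocyte nuclei, with no more than 11.8% from 1 nucleus. Next came Ankef1 at 762 and 1201 CPM, and then Prkar2b and Pck1 of the lists above. Lgals12, the galectin of lipid droplets, was at 635 and 565 CPM against 4.81 and 0.517, and Tmem45b at 476 and 540 CPM against 2.75 and 1.38.

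Others among the 15 included a pair of transporters and a hormone receptor. Slc1a3, the glial-type glutamate and aspartate transporter, was at 2128 and 4088 CPM against 36.4 and 70.8 CPM, and was found in 37 of 41 uninjured nuclei. Slc7a10, a transporter of small neutral amino acids, was at 699 and 883 CPM against 8.92 and 1.21. Tshr, the thyrotropin receptor, was at 1302 and 640 CPM against 8.92 and 11.0. Tenm4, a teneurin of cell adhesion, was at 3431 and 2912 CPM against 83.1 and 50.8, and the sialyltransferase gene St6galnac5 at 540 and 2134 CPM against 8.24 and 30.7. The remaining places were held by Nnat, Pde3b and a pair of unnamed antisense transcripts. Gm16168 was at 1429 and 1745 CPM, and A530020G20Rik, on chromosome 3 at 121531619 to 121536206 opposite Slc44a3, at 381 and 297 CPM. Nnat and Slc7a10 overlap Blcap and Lrp3 on the other strand, Tmem45b, St6galnac5 and Tenm4 overlap annotated transcripts on both strands and Slc1a3 and Tshr on their own, and the strand setting of the counting was not given in the sources used here.

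These 15 genes stayed higher when the comparison was narrowed, with smaller folds for several. Against other nuclei without Ptprc, Pecam1 or myofibre transcripts the smaller log2 fold was 6.66 for Cyp2e1, 6.97 for Ankef1, 5.54 for Prkar2b and 3.91 for Tenm4, the lowest of the 15, which was 5.29 against all other nuclei. Slc1a3 went from 5.69 to 4.64. Against fibroblast-gated nuclei (at least 3 UMIs from at least 2 of Pdgfra, Dcn, Col1a1, Col3a1 and Lum, without Ptprc or Pecam1, 54 and 332 nuclei) it was 6.95 for Cyp2e1 and 3.87 for St6galnac5, the lowest, which was 5.36 against all other nuclei.

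**Figure D3:**
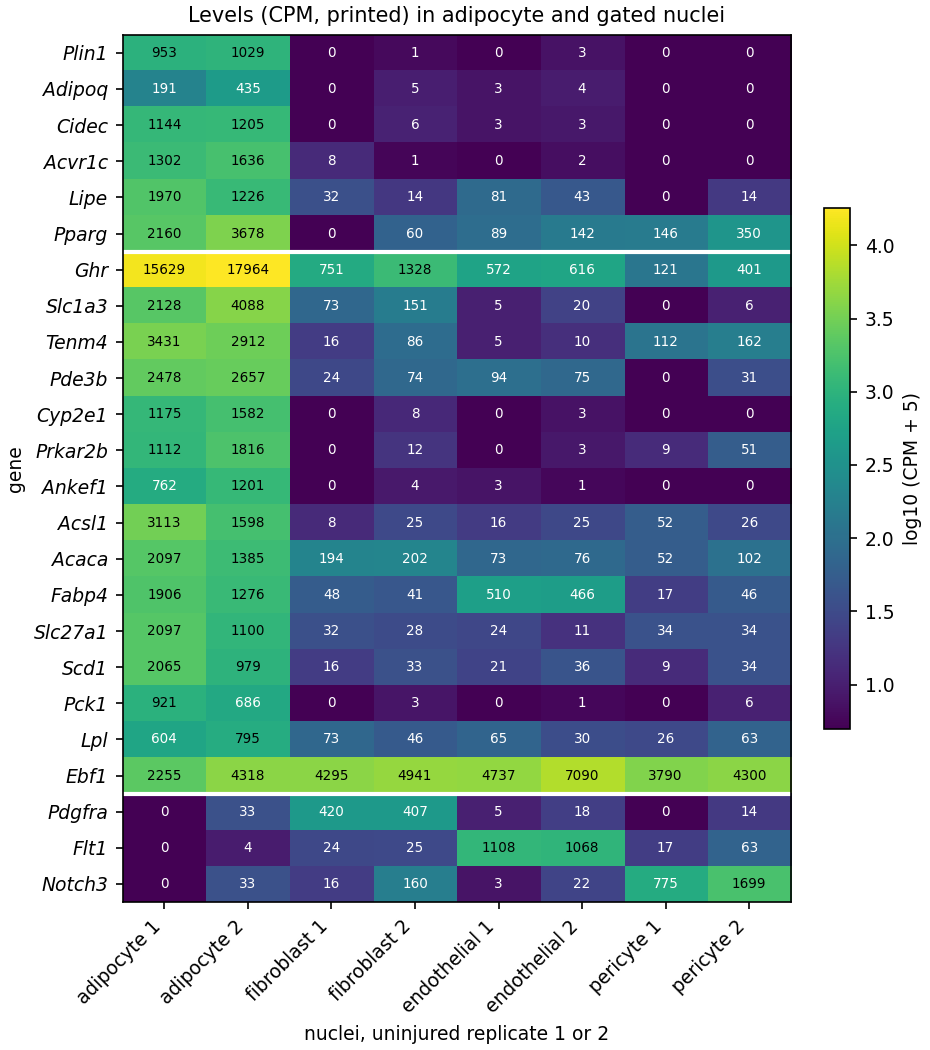
Rows are genes and columns are adipocyte, fibroblast-gated, endothelial-gated and pericyte-gated nuclei of uninjured replicates 1 and 2, with the CPM printed and coloured on a log10 scale after adding 5 CPM. White lines part the 6 selecting genes, 15 genes of fat cells and 3 gate genes, and Cyp2e1 reads 1175 and 1582 CPM in adipocyte nuclei and at most 8 elsewhere, while Ebf1 is high in every column.

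The genes farthest below the other nuclei included genes of muscle, such as Nrap and Ampd1, and of endothelium, such as Cyyr1, both cell types that the selection took out. Agbl1, Hs3st5, Tnik, Nrap, St6galnac3, Akap6, Cyyr1, Slc8a3, Ampd1 and Gm26740 had log2 folds of -5.78 or lower in both libraries, where a gene at 0 UMIs takes a value set by the 5 CPM added. Agbl1 was at 0 and 20.9 CPM against 2259 and 2096, and Tnik gave 0 UMIs in both libraries against 557 and 346 CPM. Against nuclei without Ptprc, Pecam1 or myofibre transcripts the folds shrank, to -3.11 and -1.04 for Agbl1 and -1.82 and -1.31 for Ampd1, the muscle AMP deaminase, with -0.92 for Gm26740 the nearest to 0, while Akap6, an anchor of protein kinase A at the nuclear envelope of muscle, stayed at -5.95 and -5.32.

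The uninjured libraries gave nearly the same share of adipocytes, and the counts of some lipid genes differed by more than counting error. Of 52 fat cell genes with a mean of at least 100 CPM, the selecting genes included, the Poisson intervals of both libraries did not overlap for 20 (38.5%), and 11 of these were higher in replicate 1. Over all 2064 genes at that level the intervals did not overlap for 258, 12.5%. Of the selecting genes, Lipe and Pparg were among the 20, and their levels depend in part on the selection. Pnpla3, a carbohydrate-responsive lipid droplet hydrolase, was at 1366 CPM (989 to 1840) in replicate 1 and 184 (134 to 247) in replicate 2. Fasn, fatty acid synthase, was at 381 CPM (197 to 666) and 100.4 (64.3 to 149). Acacb was at 1080 (748 to 1509) and 410 (333 to 500), Pcx, pyruvate carboxylase, at 1366 (989 to 1840) and 490 (405 to 587), and Scd1 at 2065 (1594 to 2632) and 979 (858 to 1113). The other genes higher in replicate 1 were Acsl1, Slc27a1, Vegfa, Lipe, Acaca and Fabp4.

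The 9 genes on the opposite side included secreted factors and the insulin receptor. Cfd was at 318 CPM (152 to 584) in replicate 1 and 1063 (936 to 1202) in replicate 2, Igf1 at 413 (220 to 706) and 1201 (1066 to 1348), Nrg4, neuregulin 4, at 476 (267 to 786) and 1155 (1023 to 1299), and Insr, the insulin receptor, at 159 (51.6 to 371) and 669.5 (569.8 to 782). In other nuclei, Pnpla3 was at 50.1 and 2.93 CPM and Igf1 at 21.3 and 160, in the same order as in the adipocyte nuclei. Insr at 515.5 and 282 CPM, Pcx at 74.1 and 88.0, Scd1 at 30.2 and 35.0 and Acaca at 137 and 150 stood in the opposite order in other nuclei. Over the same 2064 genes the median log2 difference between the libraries was 0.06. These intervals count UMIs and leave out the spread among 14 and 27 nuclei, so no test was made. The libraries also differed in Cell Ranger version and in depth, with 1330.5 and 6541 median UMIs in the adipocyte nuclei, and the part of these in the differences was not tested.

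**Figure D4:**
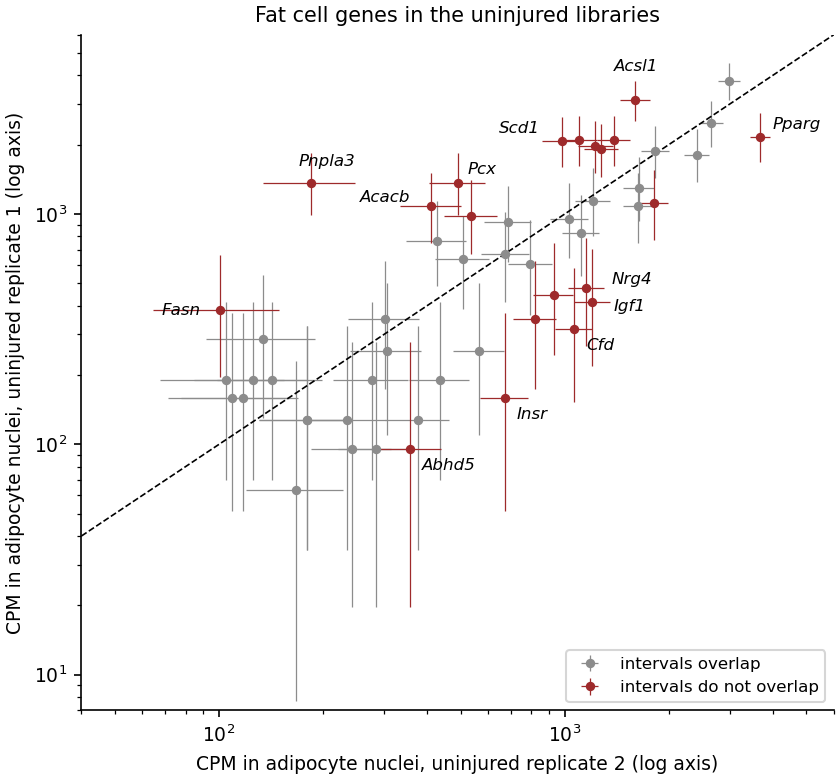
Each point is one of 52 fat cell genes, with CPM in the adipocyte nuclei of uninjured replicate 2 on the horizontal and of replicate 1 on the vertical axis, both on log axes, and exact 95% Poisson intervals as bars. Red points mark the 20 genes whose intervals do not overlap, with Pnpla3 at 1366 against 184 CPM farthest above the dashed line of equality.

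After fracture only 9 adipocyte nuclei were left to measure, 2 and 1 at day 3 and 6 at day 5, with 12249, 6479 and 26808 UMIs. In day 3 replicate 1, a single nucleus held 11645 of the 12249 UMIs, the one described above with 0.764% in the 78 genes. The levels of that library are therefore mainly those of 1 nucleus, which the Poisson intervals do not reflect. They were too few for the planned edgeR test, which needed at least 10 nuclei in each library, and they are described by their values, with a fold rule chosen after these had been seen. The 9 nuclei were pooled to 45536 UMIs and a gene was counted as lower or higher when it was at least 2-fold beyond both uninjured libraries (5 CPM added), among genes averaging at least 100 CPM over the 3 profiles. Of 2116 such genes, 276 were lower, 13.0%, and 206 higher, 9.74%. Of the 78 fat cell genes, 51 were counted, and 26 were lower and 3 higher. With pooled levels under 3 UMIs set to 3 UMIs, 20 of the 51 were lower, beside 9.36% of all genes counted. The median log2 difference of the 51 was -1.17 from replicate 1 and -1.24 from replicate 2, against -0.02 and -0.01 over all genes counted. The lists differed. Of 5 droplet genes counted, 0 were lower and 0 higher, with median log2 differences of 0.33 and 0.29. Of 11 insulin response genes counted, 2 were lower and 1 higher, beside 13.0% and 9.74% of all genes. The lower genes were Pik3r1 and Pde3b, the latter also listed for lipolysis. The higher gene was Igf1r, at 417 CPM against 63.5 and 167.

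Synthesis genes were lower for 10 of the 11 counted. This was 6 of 10 with nuclei thinned to 1000 UMIs before selection, and 7 of 11 with pooled levels under 3 UMIs set to 3, where Fasn, Agpat2 and Gpam, with 0, 1 and 2 UMIs, no longer reached 2-fold. Summed over the list they stood at 7814 CPM (exact 95% Poisson interval 6868 to 8854) and 4829 (4554 to 5116) without fracture. The same sum was 1714 (1061 to 2621) and 1235 (533 to 2433) on day 3 and 1417 (1003 to 1946) on day 5. In the other nuclei the same list was at 1188 and 888 CPM without fracture and at 734 to 1065 CPM after it. Fasn and Acacb gave 0 UMIs in the 9 nuclei, and the 3-UMI limit over the pool makes Acacb at least 6.22-fold and Fasn at least 1.52-fold lower than in the lower uninjured library. Acaca was at 571 and 309 CPM at day 3 and 448 at day 5, against 2097 and 1385, and Scd1 at 408, 154 and 336 CPM against 2065 and 979. The values of Acaca and Scd1 in day 3 replicate 2 rest on 2 UMIs and 1 UMI, and 3 UMIs there are 463 CPM.

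Uptake genes were lower in 7 of 8 counted, and in 6 with pooled levels under 3 UMIs set to 3. The list summed to 10928 and 6921 CPM without fracture, to 1061 and 4322 CPM at day 3 and to 2462 CPM at day 5. Slc27a1 had 10 UMIs in the pool, 220 CPM (105 to 404), against 2097 and 1100, and Fabp4 16 UMIs, 351 CPM (201 to 571), against 1906 and 1276. Acsl1 was at 653 and 2470 CPM at day 3 and 187 CPM at day 5, so the nucleus of day 3 replicate 2 lay between the uninjured values of 1598 and 3113. The exception was Cd36, the fatty acid translocase, which was at 671 CPM at day 5, as in the uninjured 667 and 674, and at 0 in the 3 nuclei of day 3.

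Lipolysis and secreted genes were mixed. Of 9 lipolysis genes counted, 5 were lower and 1 higher, and 4 were lower with pooled levels under 3 UMIs set to 3. Pde3b was at 659 CPM (445 to 941) against 2478 and 2657, Prkar2b at 373 (217 to 598) against 1112 and 1816, and Mgll at 703 (481 to 992) against 762 and 427. Npr3, the natriuretic peptide clearance receptor, was the higher gene, at 245 and 1543 CPM at day 3 and 2611 CPM at day 5 against 127 and 180, but 74.7% of its 83 UMIs came from 1 nucleus. Summed without Npr3, the lipolysis genes stood at 6290 and 5908 CPM without fracture, at 1225 and 3396 CPM on day 3 and at 2947 CPM (2333 to 3673) on day 5. Of 8 secreted factors counted, Nnat, Retn and Vegfa were lower, with 1, 0 and 2 UMIs in the pool, where the lower uninjured levels would give 49.2, 5.79 and 24.4. At 3 UMIs Retn is at least 1.93-fold lower and is not counted, which leaves 2 of 8. Angptl4, an inhibitor of lipoprotein lipase, was higher, at 307 CPM (168 to 516) against 95.3 and 87.9, with UMIs in 5 of the 9 nuclei. Ccdc80 and Nrg4 were at 1384 and 505 CPM, against 1874 and 1824 and against 476 and 1155.

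**Figure D5:**
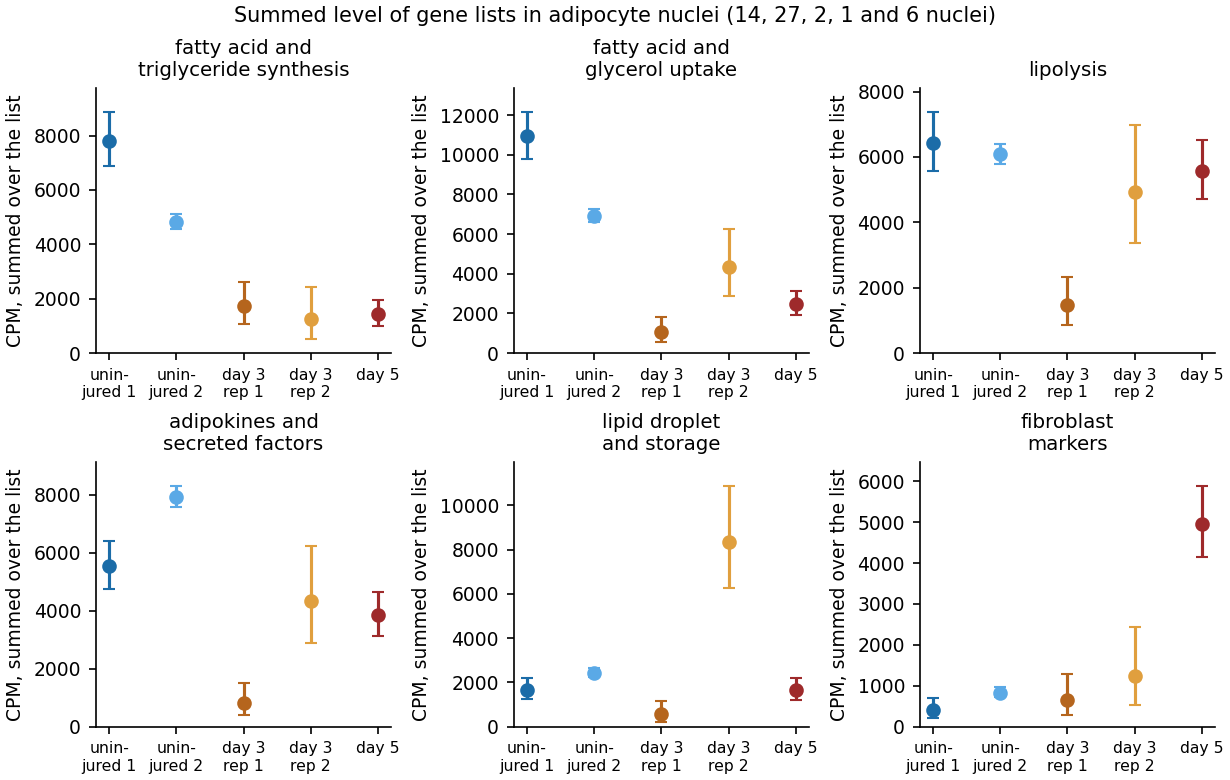
Each panel sums 1 gene list over the adipocyte nuclei of a library, in CPM with exact 95% Poisson intervals, for the 2 uninjured libraries, the 2 of day 3 and that of day 5. In day 3 replicate 1, 11645 of 12249 UMIs came from 1 nucleus. Synthesis and uptake lie lower in the 3 fractured libraries, lipolysis at day 5 stands at 5558 CPM, of which 2947 remain without Npr3, against 6417 and 6088 uninjured, and fibroblast markers reach 4961 CPM at day 5.

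Outside the lists, the genes with the largest differences from both uninjured libraries were named after their values were seen. Cyp2e1, the leading gene without fracture, gave 0 UMIs in the 9 fractured nuclei where the lower uninjured level would give 53.5, a level at least 17.8-fold lower. Fam13a, a gene linked to body fat distribution, gave 1 UMI where the lower uninjured level would give 94.0. Dock9, an activator of the GTPase Cdc42, gave 0 UMIs against 24.6. Dock9 was also lower in the other nuclei, at 96.9 to 149 CPM after fracture and 843 and 595 CPM without. Cyp2e1 was detected with both Cell Ranger versions in uninjured adipocyte nuclei and with neither in the 9 fractured nuclei. The part of software version in this difference was not tested. Fam13a was in 34 of 41 uninjured nuclei and 1 of 9 fractured nuclei, and was at 104 and 121 CPM in other uninjured and 25.8 to 36.7 CPM in other fractured nuclei.

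Several genes were higher in the fractured nuclei. Hp, which encodes haptoglobin, was at 0 and 1235 CPM at day 3 and 3432 CPM at day 5, with UMIs in 5 of the 6 nuclei of day 5, against 127 and 331 CPM without fracture. In the other nuclei Hp stayed between 0.376 and 13.3 CPM in all 6 libraries. Chl1, a neural-type adhesion molecule, was at 653 and 1852 CPM at day 3 and 5856 CPM at day 5, in 6 of the 9 nuclei with 52.5% of the UMIs from 1 of them, against 31.8 and 87.9, and at 131 to 194 CPM in the other fractured nuclei. Ccdc152 was at 1054 CPM in the pool against 31.8 and 8.37, but 93.8% of its UMIs were from 1 nucleus, as were all those of Col8a1.

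For a second set the other nuclei of the same libraries were high too. Runx1 was at 1796, 2161 and 1604 CPM in the adipocyte nuclei and at 1372, 1739 and 1849 CPM in the other nuclei, against 63.5 and 87.9 CPM in uninjured adipocyte nuclei. Col1a1 was at 81.6 CPM (1 UMI) and 0 CPM at day 3 and at 1231 CPM at day 5. It had UMIs in all 6 nuclei of day 5, where other nuclei stood at 1800 CPM, and 55.9% of the pooled UMIs came from 1 nucleus. All 4 fibroblast markers that were counted were higher in the pool than in both uninjured libraries. Fibroblast markers summed to 653 and 1235 CPM at day 3 and 4961 CPM at day 5 in the adipocyte nuclei and to 1808, 4151 and 9006 CPM in other nuclei. In day 3 replicate 1, Ttn, the giant protein of the sarcomere, had 69 of the 71 UMIs of the pool, all in 1 nucleus. The part of transcripts from other cells in these differences was not tested.

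The summed level of the 6 selecting genes was 2612 and 3859 CPM at day 3 and 4476 at day 5, against 7719 and 9210 without fracture, and a nucleus with fewer of them would not have been selected. Ghr was at 23761 CPM in the pool (22366 to 25220), above both uninjured levels by less than 2-fold. Ebf1 was at 4370 against 2255 and 4318, and Plin4 at 327 and 522 CPM in day 3 replicate 1 and day 5 but 6791 CPM in the single nucleus of day 3 replicate 2. Without the 2 fractured and 3 uninjured nuclei that were poor in fat cell genes, 21 of the 51 genes were lower, beside 12.6% of all genes counted, 5 were higher, and 7 of 11 synthesis genes were lower. The 3 higher genes became 6 of 50 without day 3 replicate 1 and 8 of 47 without uninjured replicate 2. The share of all genes called higher was 9.74% in the main count and was not computed for these alternatives. The counts of higher genes are therefore not read as a result. With the day 5 nuclei alone, 21 of 48 fat cell genes were lower, beside 15.6% of all genes counted.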

How the data were processed

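The deposited values are raw counts of UMIs, with 1 matrix for each of 6 libraries, made with Cell Ranger 6.0.0 or 7.1.0 on mm10 from intronic and exonic reads, per the file headers and the submitters' processing notes. Libraries listed 31055 to 32287 genes, of which 30406 gene IDs were shared, and 597 of these carried more than 1 symbol and were matched by ID. As in the study's methods, a barcode was kept when it had 200 to 5000 genes, less than 2% of UMIs from mitochondrial genes and less than 1.5% from Rps and Rpl genes. Doublets (Scrublet, expected rate 6%) were kept. The members, gene lists and comparisons were chosen with earlier results of these data known, and the offset of 5 CPM, the level limits, the set of 78 genes and the pooling of fractured nuclei were chosen after seeing the values.

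UMIs were summed over the adipocyte nuclei of each library and given as CPM with exact 95% Poisson intervals. Members and other nuclei were compared without a test, since the members were chosen on these counts. Nuclei were not used as replicates. Shares have exact binomial intervals, and day 3 was compared with uninjured by an exact permutation test over libraries. The planned edgeR test of day 3 needed 10 nuclei in each library and was not run. Genes were named by list (mainly those with most UMIs, others chosen after their values were seen), by the 15 largest and 10 lowest folds over other nuclei, and, after fracture, by the size of the difference. The script for folds was checked on simulated counts. Coordinates follow GENCODE release M21 on GRCm38. Intervals cover counting error only. Alternatives covered the filters, marker threshold, thinning, doublets, comparison nuclei, offset, each library left out and, after seeing the data, pooled levels under 3 UMIs set to 3. Python 3.11.15, numpy 2.4.6, scipy 1.17.1, pandas 2.3.3 and scanpy 1.11.5 were used. Some results are not reported here.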

Additional observations from a re-analysis of the deposited data

Results flagged for a closer look

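Data outside the filter held further adipocyte-like barcodes. A total of 11 barcodes that failed the limits on genes, mitochondrial or ribosomal UMIs otherwise met every condition of the selection, 10 of them in uninjured replicate 2 and 1 in day 3 replicate 2. In the 10, mitochondrial UMIs made 3.58 to 15.3% of the total, and 9 of the 10 exceeded the 99th percentile of other nuclei for the 78 fat cell genes. The barcode of day 3 had 28551 UMIs, 7 of them from the selecting genes, and 0.298% in the 78 genes.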

How the results depend on the processing

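The difference in share between day 3 and uninjured libraries kept its sign under all 13 alternatives, from -4.25 to -1.96 percentage points, with p = 0.333 in each by the exact permutation test, which is the one value that groups of this size give when they do not overlap and says nothing of stability. The number of fat cell genes higher in both uninjured libraries was 36 to 47, beside 38 as reported. The number lower after fracture was 20 to 29, beside 26, and each stayed within 1.5 times. The number of synthesis genes lower after fracture was 6 of 10 with nuclei thinned to 1000 UMIs before selection, beside 10 of 11, and 7 to 11 under the others. The 15 named folds kept their direction under every alternative run, the lowest log2 fold being 3.87. These genes were chosen for the largest folds in the same nuclei, so a reversal was unlikely and the check lends no support. Their size moved by at least the standard deviation of both uninjured folds in 1 (Tshr) to 10 (Prkar2b) of 14 alternatives. Day 3 libraries do not enter the folds of uninjured nuclei. The edgeR test and its alternatives (DESeq2, no filter on low counts, leaving out a replicate) were not run, with 2 and 1 nuclei at day 3. No paired analysis was possible because the labels carry no replicate numbers. Depth limits the fractured nuclei, in which 3 UMIs of the pool are 65.9 CPM, and uninjured replicate 1, in which they are 95.3 CPM.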
